A study of Mus musculus with 9 samples.

Results

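The chemokine system of the large intestine was described here as 38 mouse genes, 27 for chemokines and 11 for their receptors, in mice with a missense mutation in Muc2, the gene for the main secreted mucin of intestinal goblet cells. A gene counted as a member by its name on a list of chemokines and receptors, and no level was used as a cutoff. The list was chosen with earlier results of these data known. Of the members, 12 are named in a figure of the study that reported these arrays. It was read from the array probe sets that the platform annotation pairs with that gene alone, and where several existed from the one with the highest mean log2 signal. Of the 38 members, 36 had such a probe set, out of 18193 genes with one on the array, and 27 (18 ligands and 9 receptors) were bright enough to be tested. Ccl19 and Ccl21a were reached only by probe sets shared with several related genes, and 9 members were dim, with a mean log2 signal under 6.425, the median of all probe sets. Signals are on a linear scale with a trimmed mean of 500 on every array, and log2 fold changes are given ± SE.

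RNA came from the large intestine, proximal and distal parts pooled in equal amounts per mouse, with 1 Affymetrix array for each of 9 mice aged 8 weeks. The 3 Eeyore mice carried Muc2 with proline in place of a serine of the D4 domain, near the C terminus, on a mixed C57BL/6, NOD-SCID background. The 3 Winnie mice carried Muc2 with tyrosine in place of a cysteine of the D3 domain, near the N terminus, on C57BL/6. The 3 wild-type mice were C57BL/6, and both mutations arose in separate founders treated with the mutagen ENU. The background of Eeyore mice differed from that of the other groups and cannot be told apart from their Muc2 allele. Every mouse was labelled male, but Xist, which is transcribed from the inactive X chromosome of females, had a signal of 83.9 ± 21.2 in Eeyore, 38.4 ± 26.8 in Winnie and 7849 ± 448 in wild-type mice (SD, n = 3 each), and the Y-linked Eif2s3y was low in the wild-type group only, so sex cannot be told apart from genotype in any comparison with wild-type mice. Muc2 itself had a signal of 35110.0 ± 2271 in Eeyore, 32081 ± 5494 in Winnie and 76999 ± 8135 in wild-type mice. With 3 mice in a group the smallest 2-sided exact p is 0.1, so tests came from a limma fit across all 22519 bright probe sets, in which the groups shared 1 estimate of the spread.

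Chemokines are small secreted or membrane-bound proteins that bind G protein-coupled receptors on leukocytes and other cells and direct their movement along a gradient. CXC ligands with an ELR motif act through Cxcr2 on neutrophils, CXC ligands induced by interferon gamma act through Cxcr3 on activated T and NK cells, most CC ligands act on monocytes, eosinophils and T cells, and a homeostatic group positions lymphocytes in tissue and lymphoid follicles. Intestinal epithelium makes several of them, among them Ccl20, Ccl25, Ccl28 and the membrane-bound Cx3cl1 and Cxcl16. Atypical receptors bind chemokines and remove them without classical G protein signalling.

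Against wild-type mice, 7 of the 27 tested members rose in Eeyore and 5 fell, while 3 rose in Winnie and 4 fell (limma adjusted p under 0.05). Over all 11453 genes tested, 14.0% rose and 16.6% fell in Eeyore, and 11.3% rose and 11.9% fell in Winnie. In Eeyore the risers were Cxcl9, Ccl8, Cxcl13, Cxcl10, Cxcl16, Cklf and Ccl9, all of them ligands or, for Cklf, a chemokine-like factor, and the fallers were Ccl25, Cx3cl1, Ackr3, Cxcl12 and Ccl6. In Winnie the risers were Cxcl5, Ccr1 and Cklf, and the fallers were Ccr6, Ccl6, Cxcl12 and Ackr3. Called in both strains in the same direction were Cklf, which rose, and Ccl6, Cxcl12 and Ackr3, which fell, beside 8.52% of all genes rising in both and 8.71% falling in both. The 2 comparisons share the wild-type mice. Among the 12 members named in the study's figure, all tested, 4 rose and 5 fell in Eeyore, and 2 rose and 3 fell in Winnie. Among the 15 other tested members, 3 rose and 0 fell in Eeyore, and 1 rose and 1 fell in Winnie. The named members were known from these same arrays, so the counts over all 27 are not those of a list chosen blind.

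The median log2 fold change over the 27 members was 0.28 in Eeyore and 0.06 in Winnie, against -0.04 and -0.05 over all tested genes. All 3 Eeyore mice were above all 3 wild-type mice for 7 members and below them for 5, the same 12 genes that passed the test, beside 20.7% and 25.3% of all genes. All 3 Winnie mice were above for 8 members and below for 8, beside 19.7% and 24.3%. Leaving out Winnie mouse 2 left 0 members higher in Winnie by limma (3 at an unadjusted p under 0.05), and leaving out Eeyore mouse 1 gave 5. The members lower in Winnie numbered 2 without Winnie mouse 1 or wild-type mouse 2, and those lower in Eeyore numbered 3 without Eeyore mouse 2 or without any 1 of the wild-type mice. The shares of all genes called in these refits are not given here.

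**Figure D1:**
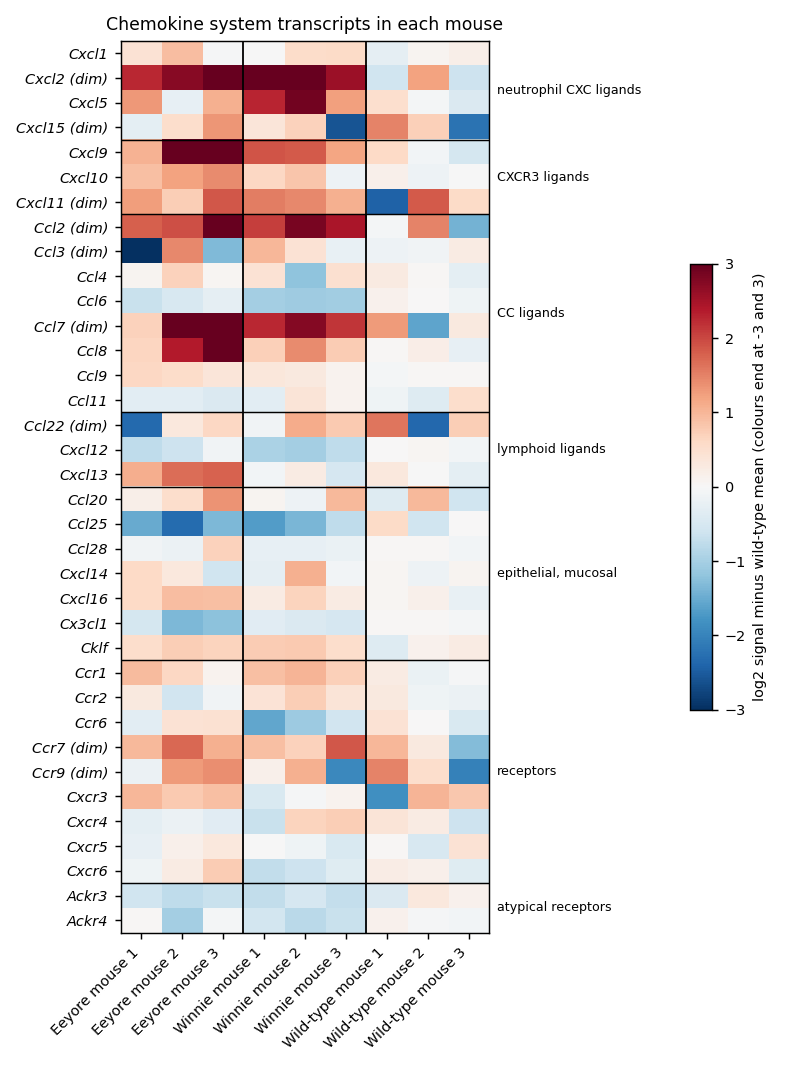
Each row is 1 of the 36 members with a probe set of its own, grouped by role, and each column is 1 mouse; colour is the log2 signal minus the wild-type mean, and dim marks the 9 members under the signal filter. Cxcl9, Ccl8 and Cxcl13 stand out in Eeyore mice 2 and 3, and Ccl6, Ccl25, Cxcl12 and Ackr3 are below the wild-type mean in all 6 mutant mice.

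**Figure D2:**
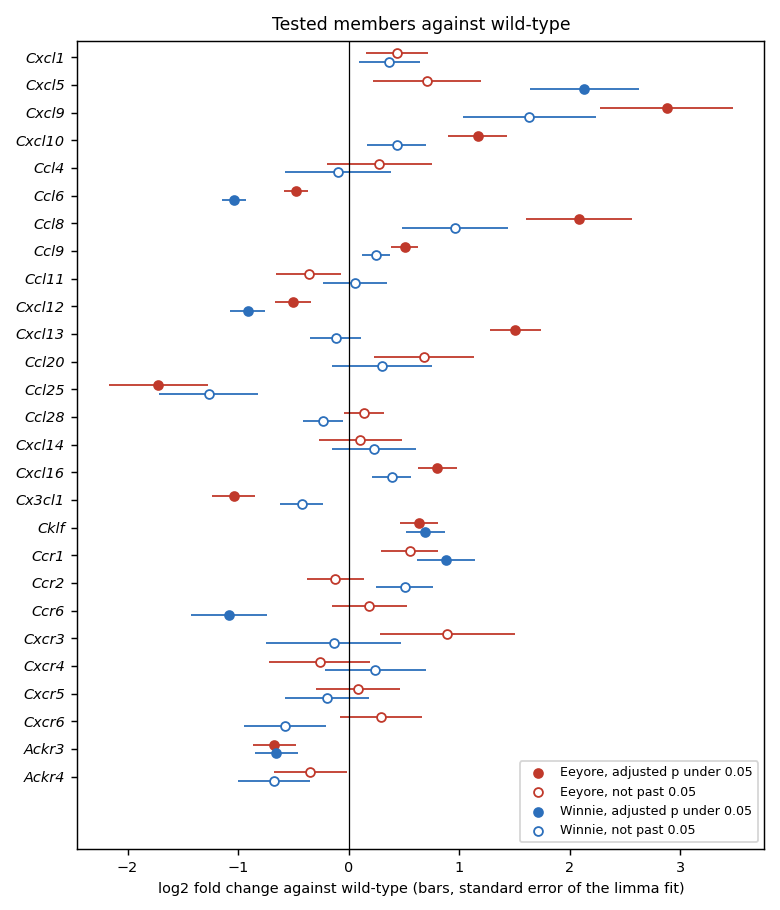
Log2 fold change against wild-type for the 27 tested members (x axis), Eeyore in red above Winnie in blue on each row, with the standard error of the limma fit; filled points passed an adjusted p of 0.05. The filled points number 12 in Eeyore and 7 in Winnie, and Cxcl13 shows the widest gap between strains among members whose strain difference passed the test.

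Among the CXC ligands of neutrophils, Cxcl5 rose in Winnie, Cxcl2 was dim but did not overlap between mutant and wild-type mice, and Cxcl1 gave different answers from its 3 probe sets. Cxcl5, a ligand of Cxcr2 made by epithelium, had a signal of 194, 67.0 and 167 in Eeyore mice, 383, 593 and 184 in Winnie mice, and 112, 76.3 and 58.3 in wild-type mice. All Winnie mice were above all wild-type mice, with Winnie mouse 2 highest, while Eeyore and wild-type mice overlapped. Its log2 fold change was 0.71 ± 0.49 (adjusted p = 0.301) in Eeyore and 2.13 ± 0.49 (adjusted p = 0.0102) in Winnie, and the difference of Eeyore minus Winnie, -1.42 ± 0.49 (adjusted p = 0.185), did not pass. Without Winnie mouse 2 the Winnie value was 1.75 (adjusted p = 0.0521). The mean log2 signal of Cxcl5 in wild-type mice was 6.31, under the signal filter. Cxcl5 thus passed the filter through its mutant levels, and the size of its rise rests on dim wild-type values.

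Cxcl2, another Cxcr2 ligand, was under the signal filter and was not tested. Its signal was 55.3, 76.7 and 98.8 in Eeyore mice, 123, 296 and 68.6 in Winnie mice, and 7.63, 26.8 and 7.54 in wild-type mice. Every mutant mouse exceeded every wild-type mouse, and Winnie mouse 2 was again highest. Cxcl1, which shares Cxcr2 with them, had on its brightest probe set 279, 391 and 201 in Eeyore mice, 205, 305 and 306 in Winnie mice, and 171, 220.3 and 235 in wild-type mice, with overlap between groups and log2 fold changes of 0.44 ± 0.28 (adjusted p = 0.262) in Eeyore and 0.37 ± 0.28 (adjusted p = 0.37) in Winnie. That probe set carries the suffix with which Affymetrix marks probes that can match other transcripts.

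The probe set of Cxcl1 without such a suffix gave 252, 176 and 181 in Eeyore mice, 369, 596 and 190.4 in Winnie mice, and 48.0, 56.6 and 79.9 in wild-type mice. Here all mutant mice were above all wild-type mice, and the log2 fold change was 1.73 ± 0.40 (adjusted p = 0.00695) in Eeyore and 2.53 ± 0.40 (adjusted p = 0.00136) in Winnie. All 3 wild-type signals were under the signal of the filter, 85.93. This probe set thus passed the filter through its mutant levels, and the size of its rise rests on dim wild-type values. The remaining Cxcl1 probe set gave 1.26 ± 0.45 (adjusted p = 0.0528) in Eeyore and 1.90 ± 0.45 (adjusted p = 0.0112) in Winnie. Cxcl15, a CXC ligand described mainly in mouse lung, was dim, with all mice between 5.67 and 96.6. Beside these ligands, the neutrophil markers S100a8 and S100a9 were also highest in Winnie mouse 2: S100a8 had 523, 262 and 439 in Eeyore mice, 360.3, 1895 and 285 in Winnie mice, and 33.5, 12.3 and 85.6 in wild-type mice. S100a8 and S100a9 rose in both strains. Their mean log2 signals in wild-type mice, 5.04 and 4.32, were under the signal filter. Both thus passed the filter through their mutant levels, and the size of their rise rests on dim wild-type values. Ltf, the only other tested marker of the 8, had 55.7, 125 and 243 in Eeyore mice, 97.1, 468 and 117 in Winnie mice, and 672, 914 and 60.1 in wild-type mice. The values of Ltf overlapped and were highest in wild-type mice 1 and 2, with -1.48 ± 0.92 (adjusted p = 0.249) in Eeyore and -0.93 ± 0.92 (adjusted p = 0.502) in Winnie. The summed signal of 8 neutrophil markers was 1142 to 1858 in Eeyore, 855 to 5019 in Winnie and 316 to 1259.7 in wild-type mice, most of it from Ltf in wild-type mice 1 and 2, with Elane among those dim in every group. The part of neutrophil number in the ligand values was not tested.

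Promoter sequence is given for Cxcl1 and Cxcl2, of which Cxcl1 was not called on its brightest probe set and Cxcl2 was not tested, and for the Cxcr3 ligands Cxcl9 and Cxcl10, which rose in Eeyore, since both pairs lie close together on chromosome 5 and both are textbook targets of inflammatory transcription factors. The sequences are from RefSeq, GRCm38.p6, 250 bases before to 50 bases after the start site, read 5′ to 3′ on the gene's strand. Capitals mark matches, on either strand, to the NF-κB consensus or to GAAANNGAAA, the core of the interferon-stimulated response element.
Cxcl1, chr5:90890995-90891294, + strand: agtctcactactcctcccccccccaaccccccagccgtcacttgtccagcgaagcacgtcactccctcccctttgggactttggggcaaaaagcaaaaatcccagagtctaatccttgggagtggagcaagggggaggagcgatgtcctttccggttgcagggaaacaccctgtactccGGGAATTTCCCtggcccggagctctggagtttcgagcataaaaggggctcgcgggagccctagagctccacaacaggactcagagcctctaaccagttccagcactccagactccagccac
Cxcl2, chr5:90903649-90903948, + strand: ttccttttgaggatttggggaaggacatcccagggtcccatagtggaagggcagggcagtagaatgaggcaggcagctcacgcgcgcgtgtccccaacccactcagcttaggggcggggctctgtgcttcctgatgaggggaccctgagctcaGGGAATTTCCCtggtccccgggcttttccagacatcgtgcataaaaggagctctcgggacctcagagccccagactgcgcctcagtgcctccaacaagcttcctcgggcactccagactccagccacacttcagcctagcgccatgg
Cxcl9, chr5:92328030-92328329, - strand: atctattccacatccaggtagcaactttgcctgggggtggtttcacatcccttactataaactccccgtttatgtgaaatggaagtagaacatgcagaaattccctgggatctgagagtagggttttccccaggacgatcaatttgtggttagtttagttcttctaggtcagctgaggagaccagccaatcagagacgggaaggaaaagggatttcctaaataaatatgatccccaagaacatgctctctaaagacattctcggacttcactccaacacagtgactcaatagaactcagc
Cxcl10, chr5:92348840-92349139, - strand: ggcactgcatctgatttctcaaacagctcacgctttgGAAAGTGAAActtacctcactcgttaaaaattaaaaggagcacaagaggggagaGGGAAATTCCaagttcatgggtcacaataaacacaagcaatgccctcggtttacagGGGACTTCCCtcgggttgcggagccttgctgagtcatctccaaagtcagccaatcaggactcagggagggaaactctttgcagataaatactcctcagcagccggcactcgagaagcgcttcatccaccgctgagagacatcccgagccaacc
Cxcl1 and Cxcl2 held the same run of capitals, GGGAATTTCCC, in which the NF-κB consensus matched once on each strand in overlap, from position -71 in Cxcl1 and from -97 in Cxcl2. Cxcl10 held NF-κB matches from -159 and -103 and a GAAANNGAAA match from -213, while the Cxcl9 window held neither motif. Over all 32851 promoters in the table, 4.51% held the NF-κB consensus, 3.44% GAAANNGAAA and 8.3% TTCNNNGAA, the interferon gamma activation site. Of the 29 members with a promoter entry, 6 held the NF-κB consensus (Cxcl1, Cxcl2, Cxcl10, Ccl9, Ccl20 and Ccr6), 3 held GAAANNGAAA (Cxcl10, Cxcl14 and Ccl19) and 2 held TTCNNNGAA (Cxcl14 and Ccr6). A member counted if any of its promoter windows matched, whereas the shares over all promoters are of single windows, so the units differ. Ccr6 held its NF-κB and TTCNNNGAA matches in different windows. A match in these windows is a description of the letters and not of factor binding.

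Of the Cxcr3 ligands, Cxcl9 and Cxcl10 rose in Eeyore, and in Winnie neither passed as deposited. Cxcl9, induced by interferon gamma, had a signal of 509, 2801 and 4289 in Eeyore mice, 919, 895 and 561 in Winnie mice, and 379, 234 and 173 in wild-type mice. Eeyore mouse 1 lay below Winnie mice 1 to 3 while Eeyore mice 2 and 3 were far above them, and all 6 mutant mice were above the wild-type mice. The spread within Eeyore, 8.42-fold between highest and lowest mouse, was wider than the 1.64-fold in Winnie and 2.18-fold in wild-type mice. Its log2 fold change was 2.88 ± 0.60 (adjusted p = 0.00432) in Eeyore and 1.64 ± 0.60 (adjusted p = 0.0724) in Winnie. A second probe set also passed in Eeyore, at 3.29 ± 0.83 (adjusted p = 0.0119), but its wild-type signals were 96.9, 4.97 and 32.5. Wild-type mice 2 and 3 were under the signal of the filter there, so the size of that second fold change rests on dim values. The Winnie value passed without Eeyore mouse 1 (adjusted p = 0.00273) or 3 (adjusted p = 0.0387), in a fit of Winnie and wild-type mice alone (adjusted p = 0.00376), with median centring (adjusted p = 0.015) and with quantile normalization (adjusted p = 0.0486). Eeyore minus Winnie was 1.24 ± 0.60 (adjusted p = 0.357), and without Eeyore mouse 1 it was 2.16 (adjusted p = 0.00297).

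Cxcl10, which has the NF-κB and interferon-response letters shown above, had 368, 454 and 524 in Eeyore mice, 305, 352 and 178 in Winnie mice, and 219, 179 and 197 in wild-type mice. Eeyore mice were above every other mouse, and Winnie mice overlapped wild-type mice through Winnie mouse 3. The log2 fold change was 1.17 ± 0.26 (adjusted p = 0.00642) in Eeyore and 0.43 ± 0.26 (adjusted p = 0.259) in Winnie, with Eeyore minus Winnie at 0.73 ± 0.26 (adjusted p = 0.205). Cxcl11, the other Cxcr3 ligand, was dim, with 97.0, 68.2 and 149 in Eeyore mice, 117, 110.4 and 84.9 in Winnie mice, and 7.57, 146 and 60.9 in wild-type mice, and the groups overlapped. Cxcr3 itself had 208, 179 and 195 in Eeyore mice, 75.6, 101 and 111 in Winnie mice, and 29.1, 211 and 184 in wild-type mice. All 3 Eeyore mice exceeded all 3 Winnie mice for this receptor, wild-type mouse 1 was lowest of all, and with all 9 mice none of its comparisons passed (0.89 ± 0.61, adjusted p = 0.293, in Eeyore, -0.14 ± 0.61, adjusted p = 0.896, in Winnie and 1.03 ± 0.61, adjusted p = 0.463, for Eeyore minus Winnie). Without wild-type mouse 1 the Winnie value of Cxcr3 was -1.055 and passed (limma adjusted p = 0.048).

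**Figure D3:**
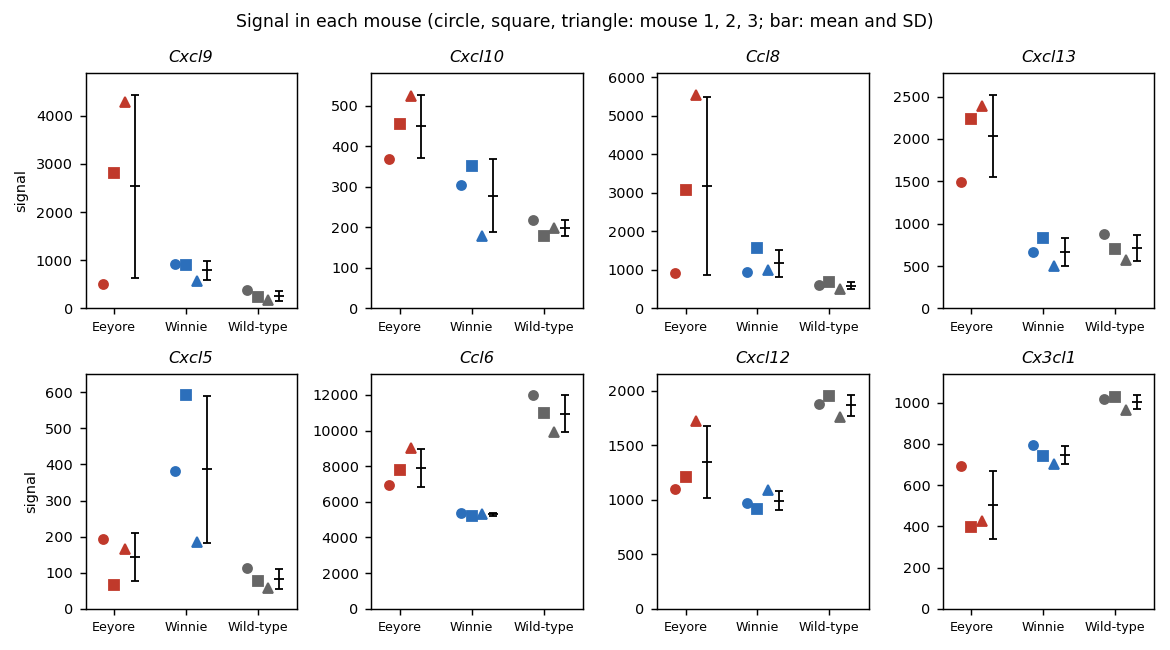
Signal (y axes, linear from 0) of 8 members in each mouse, Eeyore, Winnie and wild-type from left to right; circle, square and triangle are mouse 1, 2 and 3, and the black bar is the mean with SD (n = 3). Eeyore mouse 1 sits apart from Eeyore mice 2 and 3 for Cxcl9, Ccl8 and Cx3cl1, and Cxcl13 is high in Eeyore alone.

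Of the CC ligands of monocytes, macrophages and eosinophils, Ccl8 and Ccl9 rose in Eeyore, and Ccl6 fell in both strains. Ccl8, a monocyte chemoattractant family member that in the mouse acts through Ccr8, had 911, 3072 and 5548 in Eeyore mice, 955, 1578 and 988 in Winnie mice, and 601, 676 and 496 in wild-type mice. All mutant mice were above all wild-type mice, and Eeyore mouse 1 was just below the 3 Winnie mice while Eeyore mice 2 and 3 were the 2 highest of the 9. The log2 fold change was 2.09 ± 0.48 (adjusted p = 0.00716) in Eeyore and 0.96 ± 0.48 (adjusted p = 0.171) in Winnie. In Winnie it passed without Eeyore mouse 1 (adjusted p = 0.0153), in a fit without the Eeyore group (adjusted p = 0.00905) and with median centring (adjusted p = 0.0371). Eeyore minus Winnie was 1.13 ± 0.48 (adjusted p = 0.291), and 1.85 without Eeyore mouse 1 (adjusted p = 0.00259).

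Ccl6 and Ccl9, neighbouring genes on chromosome 11 in GRCm38.p6 and both ligands of Ccr1 in the mouse, moved in opposite directions in Eeyore. Ccl6 was a bright probe set, and its values were 6924, 7779.9 and 9036 in Eeyore mice, 5401, 5220.2 and 5313 in Winnie mice, and 11996, 10966 and 9909.6 in wild-type mice. The 3 groups did not overlap, with Winnie lowest and Eeyore between Winnie and wild-type. Its log2 fold change was -0.47 ± 0.11 (adjusted p = 0.00678) in Eeyore and -1.04 ± 0.11 (adjusted p = 0.00015) in Winnie, and Eeyore minus Winnie was 0.57 ± 0.11 (adjusted p = 0.0155). With median centring the Eeyore value was -0.15 (adjusted p = 0.275). A second Ccl6 probe set gave -0.13 ± 0.11 (adjusted p = 0.386) in Eeyore and -1.01 ± 0.11 (adjusted p = 0.000201) in Winnie, and 0.88 ± 0.11 (adjusted p = 0.00108) for Eeyore minus Winnie. The strain difference of the brightest probe set did not pass without Eeyore mouse 2 (adjusted p = 0.0571) or without Winnie mouse 3 (adjusted p = 0.0699).

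Ccl9 had 1438, 1373 and 1208 in Eeyore mice, 1196, 1159 and 1007 in Winnie mice, and 904, 961 and 957 in wild-type mice. Each Eeyore mouse exceeded each Winnie and wild-type mouse, and each Winnie mouse exceeded each wild-type mouse by a small margin. The log2 fold change was 0.51 ± 0.13 (adjusted p = 0.0109) in Eeyore and 0.25 ± 0.13 (adjusted p = 0.178) in Winnie, and its second probe set did not pass in either strain (0.50 ± 0.29, adjusted p = 0.222, in Eeyore). Ccl4, a monocyte and T cell attractant, and Ccl11, the eosinophil attractant that acts through Ccr3, ranged from 43.1 to 158.6 and from 148.7 to 288 over the 9 mice, with overlap against wild-type in both strains and no adjusted p under 0.376.

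The Ccr2 ligands Ccl2 and Ccl7, which lie next to each other on chromosome 11, were dim. Ccl2 had 59.2, 64.3 and 164 in Eeyore mice, 71.1, 122 and 92.5 in Winnie mice, and 16.3, 47.4 and 6.32 in wild-type mice. All mutant mice were above all wild-type mice. Ccl7 had 27.5, 166 and 173 in Eeyore mice, 81.2, 116 and 74.8 in Winnie mice, and 41.6, 5.72 and 20.9 in wild-type mice. Winnie mice were all above wild-type mice, while Eeyore mouse 1 lay among them. Ccl3, a ligand of Ccr1, was dim with overlap, from 5.01 to 134.6. The summed signal of 13 macrophage markers, all of them tested, was 13255 to 26902 in Eeyore, with mouse 1 lowest, 14513 to 18825 in Winnie and 11148 to 11407 in wild-type mice, and 6 of the 13 rose and 1 fell in Eeyore while 4 rose in Winnie. Of all genes tested, 14.0% rose and 16.6% fell in Eeyore, and 11.3% rose in Winnie. The brightest of the 13 markers was Lyz2, with 4631, 7859 and 10788 in Eeyore mice, 4117 to 4931 in Winnie and 3159.5 to 3886 in wild-type mice. Csf1r, Adgre1, Cd68 and Itgam were among those that did not pass in either strain. The order of the Eeyore mice for Ccl8 and Cxcl9 is the order of the macrophage sum, and the part of macrophage number in those values was not tested. In bulk tissue, fewer cells of a type and less RNA per cell cannot be told apart.

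Of the 2 members that differed between the strains by the test, Cxcl13 had the larger difference. This ligand of Cxcr5, which organises B cell follicles, had 1489, 2241 and 2391 in Eeyore mice, 664, 828 and 496 in Winnie mice, and 873, 697 and 569.6 in wild-type mice. The 3 Eeyore mice were above the other 6 mice, and Winnie and wild-type mice overlapped. On the log2 scale the difference was 1.51 ± 0.23 (adjusted p = 0.000739) in Eeyore and -0.12 ± 0.23 (adjusted p = 0.755) in Winnie, and Eeyore minus Winnie was 1.62 ± 0.23 (adjusted p = 0.00245). The second Cxcl13 probe set also passed, at 0.83 ± 0.22 (adjusted p = 0.0151) in Eeyore and 1.23 ± 0.22 (adjusted p = 0.0105) for Eeyore minus Winnie. Cxcr5, its receptor, ranged from 74.2 to 138.2 over the 9 mice and did not pass in either strain. The B cell marker Ms4a1 had 407, 756 and 767 in Eeyore mice, 309, 262 and 395 in Winnie mice, and 535, 427 and 435 in wild-type mice. Eeyore mice 2 and 3 were highest for this marker, Eeyore mouse 1 lay below wild-type mice, and neither strain passed (0.42 ± 0.25, adjusted p = 0.238, in Eeyore and -0.54 ± 0.25, adjusted p = 0.143, in Winnie). The summed signal of 9 B cell markers was 7190.2 to 7799 in Eeyore, 5983 to 6868 in Winnie and 5312 to 5554 in wild-type mice, with 1 of 8 tested markers, Blnk, rising in Eeyore. Most of that sum came from Blnk, at 4581 to 6159 in Eeyore, 4488.5 to 5609.8 in Winnie and 3611 to 3758 in wild-type mice. Over the 8 tested markers the median log2 fold change was 0.43 in Eeyore and -0.55 in Winnie, where 4 were lower in all Winnie mice than in all wild-type mice. The median of Eeyore minus Winnie was 0.87, and 6 of the 8 were higher in all Eeyore mice than in all Winnie mice, though none passed that test (0 by limma, 4 at an unadjusted p under 0.05). The part of B cell number in the Cxcl13 values was not tested.

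Cxcl12, the homeostatic ligand of Cxcr4 made by stromal cells, fell in both strains. It had 1102, 1209 and 1722 in Eeyore mice, 971, 915 and 1092 in Winnie mice, and 1879, 1955 and 1764 in wild-type mice. All mutant mice were below all wild-type mice, and Eeyore mouse 3 came nearest to them. The log2 ratio to wild-type was -0.50 ± 0.16 (adjusted p = 0.0361) in Eeyore and -0.91 ± 0.16 (adjusted p = 0.00261) in Winnie, and a second, dimmer probe set gave -1.66 ± 0.38 (adjusted p = 0.0068) in Eeyore and -1.73 ± 0.38 (adjusted p = 0.00777) in Winnie. The Eeyore call on the brightest probe set was lost with median centring (-0.18, adjusted p = 0.423), and without Eeyore mouse 1 or 2 or without any 1 wild-type mouse (adjusted p from 0.058 to 0.12). Cxcr4 ranged from 64.7 to 171 over the 9 mice and did not pass in either strain. Beside Cxcl12, the summed signal of 8 fibroblast markers was 25953 to 29100 in Eeyore, 24107 to 29785 in Winnie and 35630 to 37678 in wild-type mice. Of these 8, 3 fell in Eeyore and 2 in Winnie, and Col1a1 and Col3a1 did not pass in either. Dcn, which fell in both, had a mean signal of 7280 in Eeyore, 7856 in Winnie and 12985 in wild-type mice. The sum of 10 endothelial markers was 1352 to 1621 in Eeyore, 1285 to 1826 in Winnie and 2294 to 2504 in wild-type mice, and 3 of the 7 tested fell in each strain. All 10 smooth muscle markers fell in both strains, beside 16.6% of all genes falling in Eeyore and 11.9% in Winnie. The part of these cell types in the fall of Cxcl12 was not tested.

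The Ccr7 ligands could not be measured alone. The probe set that Ccl19 shares with 9 other annotated genes was under the filter, with 84.3, 90.3 and 38.5 in Eeyore, 6.43, 47.1 and 53.9 in Winnie, and 257, 169.0 and 137.6 in wild-type mice. All mutant mice were below all wild-type mice there. The probe set that Ccl21a shares with 8 other annotated genes had 2711, 3088 and 3098 in Eeyore, 2173, 3015 and 1967 in Winnie, and 2384, 2390.4 and 2085 in wild-type mice, with Eeyore above wild-type in every mouse and Winnie overlapping. Ccl22, a ligand of Ccr4 made by dendritic cells, and Ccr7 itself were dim, Ccl22 from 9.17 to 143 and Ccr7 from 12.0 to 107 over the 9 mice, and the groups overlapped for both.

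The ligands of epithelium and mucosa moved apart in Eeyore, where Cxcl16 rose and Ccl25 and Cx3cl1 fell. Cxcl16, a membrane-bound ligand of Cxcr6, had 651, 826 and 806 in Eeyore mice, 517, 687 and 515 in Winnie mice, and 452, 483 and 373 in wild-type mice. All mutant mice were above all wild-type mice, and Eeyore and Winnie overlapped. Against wild-type mice the log2 difference was 0.80 ± 0.18 (adjusted p = 0.00594) in Eeyore and 0.39 ± 0.18 (adjusted p = 0.137) in Winnie, and a second probe set gave 0.87 ± 0.21 (adjusted p = 0.0103) in Eeyore. Cxcr6 ranged from 67.3 to 192.2 over the 9 mice, and all Eeyore mice were above all Winnie mice without passing (0.87 ± 0.37, adjusted p = 0.293).

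Cx3cl1, the membrane-bound ligand of Cx3cr1, had 694, 395 and 425 in Eeyore mice, 794, 744 and 705 in Winnie mice, and 1019.9, 1026 and 963 in wild-type mice. The 3 groups did not overlap, Eeyore being lowest and wild-type highest, with Eeyore mouse 1 close to the Winnie mice. Its log2 fold change was -1.04 ± 0.19 (adjusted p = 0.00239) in Eeyore and -0.43 ± 0.19 (adjusted p = 0.137) in Winnie. The Winnie value passed without Eeyore mouse 1 (adjusted p = 0.0404) and without the Eeyore group (adjusted p = 0.0385). Eeyore minus Winnie was -0.61 ± 0.19 (adjusted p = 0.146), and -0.87 without Eeyore mouse 1 (adjusted p = 0.00793). A second, dimmer probe set of Cx3cl1 ran the other way without passing, at 0.38 ± 0.29 (adjusted p = 0.343) in Eeyore and 0.50 ± 0.29 (adjusted p = 0.235) in Winnie.

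Ccl25, which draws Ccr9-bearing lymphocytes to the gut and is best known from the small intestine, had 68.2, 39.5 and 76.1 in Eeyore mice, 61.3, 75.4 and 114 in Winnie mice, and 292, 129 and 196 in wild-type mice. Every mutant mouse was below every wild-type mouse, and wild-type mouse 1 was highest. The mean log2 signal of Ccl25 was 5.88 in Eeyore and 6.34 in Winnie, both under the signal filter, and 7.60 in wild-type mice. Ccl25 thus passed the filter through its wild-type level, and the size of its fall rests on dim mutant values. Its log2 fold change was -1.72 ± 0.45 (adjusted p = 0.0136) in Eeyore and -1.27 ± 0.45 (adjusted p = 0.0634) in Winnie, and the Eeyore call was lost without wild-type mouse 1 (adjusted p = 0.0688) and with probe sets averaged (adjusted p = 0.133). The Winnie value passed under 4 alternatives, namely dropping Eeyore mouse 2, an offset of 32, no intensity trend and a fit without the Eeyore group (adjusted p from 0.0424 to 0.05). Ccr9 was dim, from 6.68 to 77.3, with overlap. Ccl28, the mucosal ligand of Ccr10 that draws IgA plasma cells, ranged from 3219.7 to 6199 over the 9 mice. Its brightest probe set did not pass in either strain (0.14 ± 0.18, adjusted p = 0.597, in Eeyore and -0.23 ± 0.18, adjusted p = 0.387, in Winnie), and 1 of its 2 other probe sets passed in Eeyore, at 0.72 ± 0.25 (adjusted p = 0.0472). Eeyore mouse 3 was highest on all 3 Ccl28 probe sets.

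Ccl20, the chemokine ligand of Ccr6, ranged from 105.2 to 405 and Cxcl14, an epithelial CXC ligand, from 132.6 to 419 over the 9 mice. Both overlapped wild-type in each strain, with Eeyore log2 fold changes of 0.68 ± 0.45 (adjusted p = 0.275) for Ccl20 and 0.11 ± 0.38 (adjusted p = 0.857) for Cxcl14. Cklf, a chemokine-like factor of the MARVEL domain family, had 943, 1088 and 1041 in Eeyore mice, 1118, 1138 and 946 in Winnie mice, and 501, 722 and 786 in wild-type mice. All mutant mice were above all wild-type mice, and the strains overlapped. In the fit the log2 fold change was 0.64 ± 0.17 (adjusted p = 0.017) in Eeyore and 0.69 ± 0.17 (adjusted p = 0.0151) in Winnie. Without wild-type mouse 1 neither strain passed (adjusted p = 0.0602 in Eeyore and 0.0528 in Winnie), nor did Eeyore without Eeyore mouse 2 (adjusted p = 0.0579) or Winnie without Winnie mouse 2 (adjusted p = 0.0516). Of the 5 tested Cklf probe sets, 3 passed in both strains, the most in Winnie at 1.23 ± 0.21 (adjusted p = 0.00232), and the other 2 were not called in either. The summed signal of 12 epithelial markers was 278370 to 305010 in Eeyore, 268260 to 294850 in Winnie and 239650 to 257480 in wild-type mice, and its part in the values of these ligands was not tested.

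**Figure D4:**
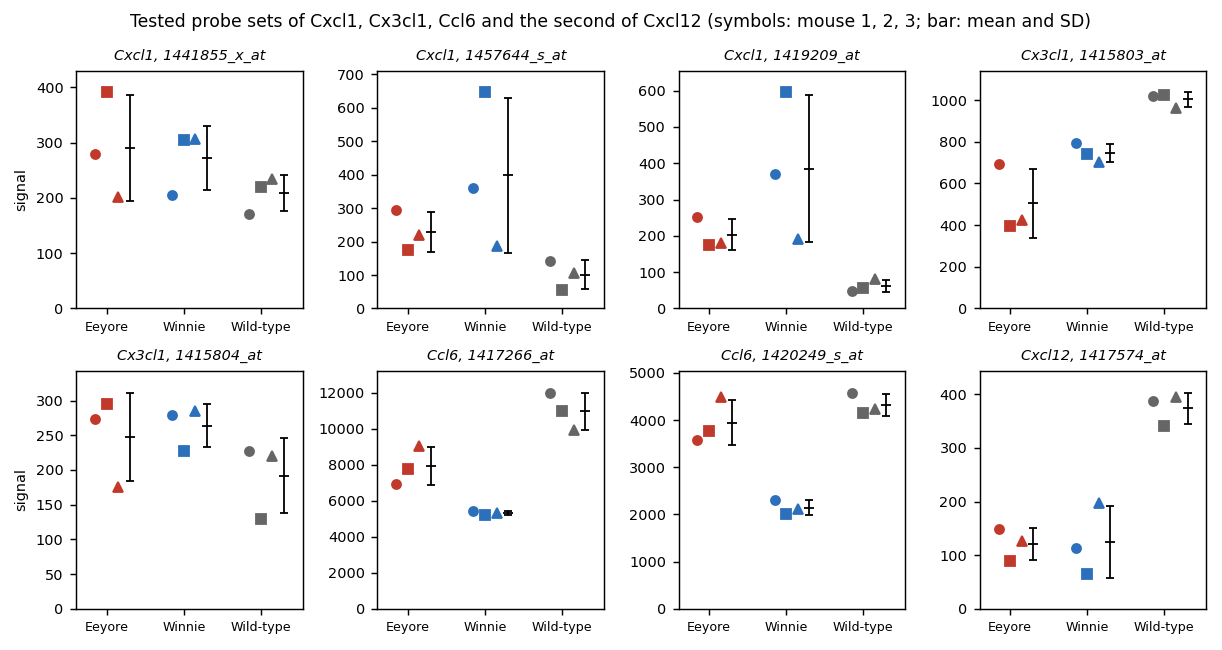
Signal (y axes, linear from 0) in each mouse for all tested probe sets of Cxcl1, Cx3cl1 and Ccl6 and the second of Cxcl12, named by their array identifiers; symbols and bars are mouse 1, 2, 3 and mean with SD (n = 3). The first Cxcl1 probe set overlaps between mutant and wild-type mice and its other 2 do not, and the 2 Cx3cl1 probe sets differ in the order of the groups.

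Of the 9 tested receptors, Ackr3 fell in Eeyore and none rose there (0 at an unadjusted p under 0.05 in limma), and in Winnie Ccr1 rose while Ccr6 and Ackr3 fell. Their median log2 fold change was 0.08 in Eeyore and -0.20 in Winnie, against 0.47 and 0.24 over the 18 tested ligands. Ccr1, a receptor of monocytes and neutrophils that binds Ccl3, Ccl6 and Ccl9 in the mouse, had 308, 246 and 171 in Eeyore mice, 300.3, 325 and 263 in Winnie mice, and 188, 139 and 157 in wild-type mice. All Winnie mice were above all wild-type mice, and Eeyore mouse 3 lay among wild-type mice. Its log2 difference came to 0.55 ± 0.26 (adjusted p = 0.127) in Eeyore and 0.88 ± 0.26 (adjusted p = 0.0302) in Winnie. The Eeyore value passed without Eeyore mouse 3 (adjusted p = 0.0427) and with quantile normalization or median centring (adjusted p = 0.0231 and 0.0208). The Winnie call was lost without any 1 of Winnie mice 1, 2 and 3 or wild-type mice 2 and 3 (adjusted p from 0.0532 to 0.0986).

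Ccr6, the receptor of Ccl20 on B cells and some T cells, had 184, 307 and 314 in Eeyore mice, 77.6, 107 and 153 in Winnie mice, and 311, 229 and 168 in wild-type mice. All Winnie mice were below all Eeyore and wild-type mice, whereas Eeyore and wild-type overlapped. On the log2 scale the difference was 0.19 ± 0.34 (adjusted p = 0.709) in Eeyore and -1.08 ± 0.34 (adjusted p = 0.0417) in Winnie, and Eeyore minus Winnie was 1.27 ± 0.34 (adjusted p = 0.0835), or 1.52 without Eeyore mouse 1 (adjusted p = 0.0389). The Winnie call was lost without Winnie mouse 1 or 2, wild-type mouse 1 or 2 or Eeyore mouse 2 (adjusted p from 0.0527 to 0.152), and with quantile normalization or median centring (adjusted p = 0.162 and 0.141). The summed signal of 12 T cell markers was 1185 to 1961 in Eeyore, 918 to 1330.3 in Winnie and 1436 to 1860 in wild-type mice, with Cd3e dim in every group. Of 8 tested B cell markers, 1 rose (Blnk) and 1 fell (Cd79b, at -0.79 ± 0.25, adjusted p = 0.0447) in Winnie, and Ms4a1, Cd79a, Cd79b and Fcer2a were lower in every Winnie mouse than in every wild-type mouse. The part of both cell types in the Ccr6 values was not tested. Ccr2, the receptor of Ccl2 and Ccl7 on monocytes, ranged from 152.1 to 373, and all Winnie mice were above all wild-type mice without passing (0.51 ± 0.26, adjusted p = 0.18).

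Of the atypical receptors, Ackr3 fell in both strains, and Ackr4 fell on 1 of its 3 tested probe sets. Ackr3, which removes Cxcl12, had 492, 437 and 469.8 in Eeyore mice, 448, 522 and 449 in Winnie mice, and 545, 926 and 808 in wild-type mice. The 6 mutant mice were all below the 3 wild-type mice, and wild-type mouse 1 was nearest to them. The log2 ratio to wild-type was -0.67 ± 0.19 (adjusted p = 0.0227) in Eeyore and -0.65 ± 0.19 (adjusted p = 0.0325) in Winnie, and -0.02 ± 0.19 (adjusted p = 0.977) for Eeyore minus Winnie. With quantile normalization these became -0.57 in each strain (adjusted p = 0.052 in Eeyore and 0.0646 in Winnie), median centring left -0.35 in Eeyore (adjusted p = 0.235) and -0.24 in Winnie (adjusted p = 0.418), and calls were also lost without wild-type mouse 2 or 3 in both strains, without Eeyore mouse 2 in Eeyore and without Winnie mouse 1 or 3 in Winnie (adjusted p from 0.0695 to 0.136). Ackr4, which removes Ccl19, Ccl21 and Ccl25, ranged from 89.0 to 196.3 over the 9 mice and did not pass on its brightest probe set (-0.35 ± 0.33, adjusted p = 0.455, in Eeyore and -0.68 ± 0.33, adjusted p = 0.16, in Winnie). A second Ackr4 probe set passed in both strains, at -1.16 ± 0.39 (adjusted p = 0.0404) in Eeyore and -1.25 ± 0.39 (adjusted p = 0.0372) in Winnie, and the other did not.

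Set directly against each other, the strains differed for 2 of the 27 members, Cxcl13 and Ccl6, both higher in Eeyore than in Winnie, beside 1.29% of all genes higher and 1.30% lower. No member was lower in Eeyore than in Winnie at the adjusted threshold (0 by limma, 3 at an unadjusted p under 0.05). All 3 Eeyore mice were above all 3 Winnie mice for 9 members and below them for 3, beside 10.2% and 10.7% of all genes, and the median difference over the members was 0.33. Cxcl13 separated Eeyore from both other groups, whereas Ccl6 was lowest in Winnie. Leaving out Eeyore mouse 1 raised the count to 5 higher and 1 lower, adding Ccl8, Cxcl9, Ccr6 and Cx3cl1, and leaving out Eeyore mouse 2 or Winnie mouse 3 left Cxcl13 alone. The shares of all genes called in these refits are not given here, so the rise cannot be read as particular to the members. For 7 of the 12 members with more than 1 tested probe set (Ackr4, Ccl28, Ccl6, Ccl9, Cklf, Cx3cl1 and Cxcl1), the probe sets were split between called and not called in at least 1 strain against wild-type.

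Of 34 other genes of the chemokine system, on a list chosen by function, 18 were tested, of which 1 rose and 3 fell in Eeyore and 1 rose and 2 fell in Winnie, beside 14.0% and 16.6% of all genes in Eeyore and 11.3% and 11.9% in Winnie. Their median log2 fold change was 0.03 in Eeyore and -0.08 in Winnie. Mif, a cytokine that binds Cxcr2 and Cxcr4, rose in both strains, by 0.78 ± 0.14 (adjusted p = 0.00205) in Eeyore and 0.55 ± 0.14 (adjusted p = 0.0169) in Winnie on the log2 scale, and Cmtm4, of the same family as Cklf, fell in both. Ccl27a, a ligand of Ccr10, and Pf4, a CXC ligand of platelets, fell in Eeyore, Ccl27a with a log2 fold change of -1.33 ± 0.39 (adjusted p = 0.0232) and Pf4 with -0.94 ± 0.21 (adjusted p = 0.00624), and did not pass in Winnie. Ccl5, a ligand of Ccr1 and Ccr3 made by T and NK cells, had 183, 751 and 739.5 in Eeyore mice, 127, 135 and 191 in Winnie mice, and 855, 727 and 592 in wild-type mice. Winnie mice were all well below wild-type mice and Eeyore mouse 1 was near them, and Ccl5 fell in Winnie, with -0.62 ± 0.44 (adjusted p = 0.315) in Eeyore and -2.27 ± 0.44 (adjusted p = 0.00433) in Winnie. Beside it, the summed signal of 5 NK and innate lymphoid markers was 625 to 1500.2 in Eeyore, 221 to 342 in Winnie and 691 to 990 in wild-type mice. Most of that sum in Eeyore and wild-type mice came from the granzyme gene Gzma. Of the 2 tested, Gzma fell in Winnie, at -3.15 ± 0.51 (adjusted p = 0.00168), and Nkg7 did not pass (-1.58 ± 0.62, adjusted p = 0.0899). Their mean log2 signals in Winnie, 5.97 and 5.69, were under the signal filter, so the size of both differences rests on dim Winnie values. Among the markers too dim to be tested, with overlap, mean signals in Winnie were higher than in wild-type mice for Klrk1 and Eomes and lower for Ncr1. The part of NK and innate lymphoid cells in the Ccl5 values was not tested. The neutrophil receptor gene Cxcr2 was dim, at 10.2 to 115.4 over the 9 mice.

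Among 28 tested genes of chemokine receptor signalling, 5 rose and 2 fell in Eeyore and 5 rose and 4 fell in Winnie. Of all genes tested, 14.0% rose and 16.6% fell in Eeyore, and 11.3% rose and 11.9% fell in Winnie. Rgs1, which shortens G protein signalling in lymphocytes, had 310.2, 364 and 288 in Eeyore mice, 456, 499 and 543 in Winnie mice, and 917, 1065 and 1361 in wild-type mice. It was lower in all mutant mice and fell in both strains, with log2 fold changes of -1.78 ± 0.18 (adjusted p = 4.97e-05) in Eeyore and -1.14 ± 0.18 (adjusted p = 0.00135) in Winnie, as did the arrestin gene Arrb1, while Rac1 and Gnai3 rose in both. Of 17 tested NF-κB factors and targets, 7 rose and 1 fell in Eeyore and 2 rose and 2 fell in Winnie, beside those shares of all genes. Il1b, a cytokine that induces Cxcl1 and Cxcl2 in many cells, rose in both strains (2.83 ± 0.45, adjusted p = 0.000915, in Eeyore and 2.06 ± 0.45, adjusted p = 0.00803, in Winnie), with 886, 1298 and 1430.1 in Eeyore mice, 570.0, 1696 and 344 in Winnie mice, and 222, 160.2 and 129 in wild-type mice. Winnie mouse 2, highest for Cxcl5 and Cxcl2, was also highest for Il1b.

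Of 15 tested genes of the interferon gamma response, 6 rose in Eeyore and 3 in Winnie, and none fell in either (0 by limma, and 0 at an unadjusted p under 0.05). Of all genes tested, 14.0% rose and 16.6% fell in Eeyore, and 11.3% rose and 11.9% fell in Winnie. The GTPase gene Iigp1 had 2051, 8835 and 12936 in Eeyore mice, 4303, 5350.5 and 3733 in Winnie mice, and 1298, 1252 and 1198 in wild-type mice. Mutant mice were all above wild-type mice, and Eeyore mouse 1 was again the lowest of the mutants, as for Cxcl9. Iigp1, Gbp2 and Irgm1 rose in both strains, Iigp1 by 2.30 ± 0.48 (adjusted p = 0.00439) in Eeyore and 1.82 ± 0.48 (adjusted p = 0.0197) in Winnie. Psmb9, an immunoproteasome subunit, rose in Eeyore and was higher there than in Winnie (2.06 ± 0.48, adjusted p = 0.0444). The transcript of Ifng itself was dim, from 1.84 to 100.8 over the 9 mice.

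**Figure D5:**
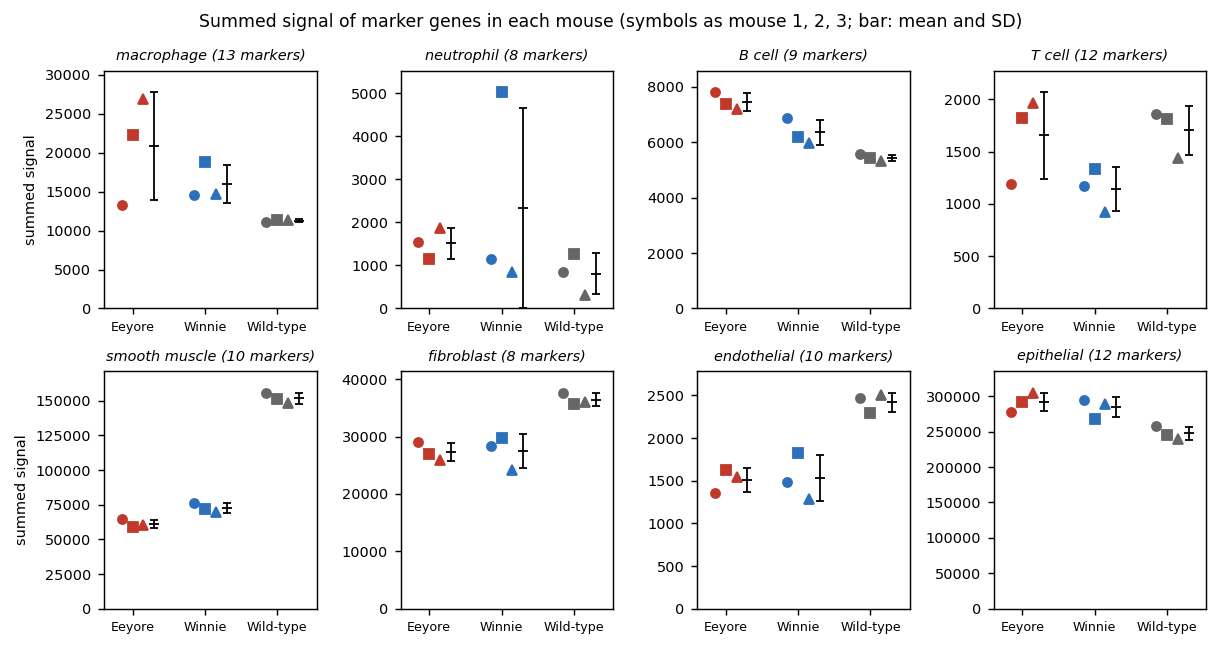
Summed signal (y axes, linear from 0) of marker genes for 8 cell types in each mouse, with the number of markers in each title; symbols and bars are mouse 1, 2, 3 and mean with SD (n = 3). Macrophage markers are highest in Eeyore mice 2 and 3, neutrophil markers in Winnie mouse 2, and smooth muscle, fibroblast and endothelial sums are lower in all 6 mutant mice.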

How the data were processed

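The deposited values were linear signal intensities, 1 for each probe set on each array, which the authors had scaled so that the mean after trimming 2 percent of values at each end was 500. One-Cycle labelling and scanning followed the Affymetrix protocol, and the algorithm and any detection calls are not given in the sources used here. Of 45037 probe sets other than controls, the platform annotation paired 34945 with 1 gene symbol, 932 with several and 9160 with none. Signals were converted to log2, and probe sets with a mean log2 of at least 6.425 (the median, a signal of 85.93) were fitted in limma 3.58.1 (R 4.3.3) with lmFit and eBayes, an intensity trend and group as the only term. P-values were adjusted by Benjamini-Hochberg over 22519 probe sets, with 0.05 as threshold. Fold changes are differences of mean log2 signals ± SE. An array has no read depth, and 3 arrays in each group limit the precision. Members called in at least 1 comparison, or at least 2-fold apart without overlap, were given mouse by mouse. Members and gene lists were chosen with earlier results of these data known. Figures were drawn with matplotlib 3.10.9, and the fit was tested on simulated data. Alternatives changed the scaling, filter, offset (32), variance model, samples, probe set summary and fold threshold. Replicate numbers did not pair the mice. The labels do not say that mice of a group came from separate litters or days, and p-values measure the spread between these mice. Sums of marker signals were taken over each list's brightest probe sets.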

Additional observations from a re-analysis of the deposited data

Results flagged for a closer look

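Cxcl13 and Ccl6 are listed because their change against wild-type mice differed between the 2 mutant strains by a direct test. For Cxcl13 the Eeyore change exceeded the Winnie change by 1.624 ± 0.232 on the log2 scale (limma adjusted p = 0.00245), with all 3 Eeyore mice above all 3 Winnie mice. For Ccl6 it exceeded it by 0.567 ± 0.108 (adjusted p = 0.0155), again without overlap, since Ccl6 fell less in Eeyore than in Winnie. The mixed background of the Eeyore mice cannot be told apart from their Muc2 allele in either difference.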

How the results depend on the processing

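Of the 21 member calls, 8 held under every alternative with a test other than the 2-fold threshold: Ccl6 in Winnie, Ccl8, Cxcl9, Cxcl10, Cxcl13, Cxcl16 and Cx3cl1 in Eeyore, and Cxcl13 between strains. Of these, Cx3cl1 and Cxcl10 were tested under 18 alternatives and the others under 19. Cx3cl1 fell under the filter when probe sets were averaged, and Cxcl10 under the filter at the 75th percentile. No called member changed sign under any alternative. The 3 members higher and 4 lower in Winnie, 7 higher and 5 lower in Eeyore, and 2 higher and 0 lower in Eeyore than Winnie changed as follows. Quantile normalization left 2 lower in Winnie. Median centring of each array gave 9 higher and 2 lower in Winnie and 2 lower in Eeyore; it moved the median log2 fold change of all genes to 0.28 in Eeyore and 0.36 in Winnie, against -0.04 and -0.05 as deposited, and the share of called genes that were higher to 80.7% in Eeyore and 90.3% in Winnie, against 45.8% and 48.6%. A filter at the 75th percentile left 1 higher in Winnie, a fit without the intensity trend 1 higher in Eeyore than Winnie, and a fit of only the groups compared gave 5 higher and 6 lower in Winnie, adding Ccl8 and Cxcl9 as higher and Ccl25 and Cx3cl1 as lower. Averaging probe sets left 2 lower in each strain, and a further 2-fold threshold left 1 higher and 2 lower in Winnie, 4 higher and 2 lower in Eeyore and 1 higher in Eeyore than Winnie. Leaving out 1 mouse gave 0 to 5 higher and 2 to 5 lower in Winnie, 6 to 8 higher and 3 to 5 lower in Eeyore, and 1 to 5 higher and 0 to 1 lower in Eeyore than Winnie. Shares of all genes called without a mouse are not given beside these counts. Same-numbered mice of different groups did not deviate together (correlations of -0.0082 to 0.164), and a fit with the replicate number as a block gave 3 higher and 3 lower in Winnie, losing Ccr6 (adjusted p = 0.0563), and changed no other call. The causes of these changes were not tested.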
